A study of Mus musculus with 3 samples.

Results

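The Dkk1-positive cells are sorted mouse embryonic stem (ES) cells chosen by the measured Dkk1 count itself, at least 1 transcript in the well. They were taken from replicate 1 (all plates) and replicate 3 (plates 709 and 711), from wells with more than 2600 detected genes, and they numbered 161 of the 506 wells so read and of the 1335 wells of the series past that filter. The cells came from the JM8.N4 line, a C57BL/6N ES cell line, grown without feeders on gelatin in serum, LIF and 2i (a MEK inhibitor with the GSK3 inhibitor CHIR99021). In every group the cohesin subunit RAD21 carried an auxin-inducible degron and the cells carried Tir1, the plant receptor that marks the tagged protein for destruction once auxin is present. Control cells received no auxin and auxin cells received 500 µM for 6 h. In replicate 1 the deposited annotation names the wells RAD21_positive and RAD21_negative, which are read here as control and auxin. Smart-SCRB is a plate-based method in which captured mRNA molecules receive a molecular tag (unique molecular identifier, UMI), and counts are of these tags, not reads.

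DKK1 is a secreted antagonist of canonical Wnt signalling. It binds the co-receptors LRP5 and LRP6, acts together with the Kremen receptors, and keeps Wnt ligands from stabilising β-catenin. Its gene is itself a target of β-catenin and the TCF/LEF factors, so that it is part of a negative feedback loop, and in the early embryo it is known from the anterior visceral endoderm and from head formation. In ES cells held in 2i the GSK3 inhibitor stabilises β-catenin downstream of the step at which DKK1 acts. Dkk1 (ENSMUSG00000024868) lies on the minus strand of chromosome 19, at chr19:30545863-30549665 of mm10 in the GENCODE vM21 annotation.

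Dkk1 was found in a minority of control wells and in nearly every second auxin well. In replicate 1 it was counted in 27 of 168 control wells (16.1%, exact 95% binomial interval 10.9 to 22.5%) and in 80 of 169 auxin wells (47.3%, interval 39.6 to 55.1%). In replicate 3 the numbers were 15 of 85 control wells (17.6%, interval 10.2 to 27.4%) and 39 of 84 auxin wells (46.4%, interval 35.5 to 57.6%). The share was thus 2.95 times as high with auxin as without in replicate 1, and 2.63 times in replicate 3. These shares use the gene that chose the cells and are given as a description, with no test. The intervals cover counting error only.

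Single plates showed the same separation. The control plates held 15 positive of 87 wells (plate 541, 17.2%), 12 of 81 (plate 544, 14.8%) and 15 of 85 (plate 709, 17.6%). The auxin plates held 41 of 90 (plate 542, 45.6%), 39 of 79 (plate 543, 49.4%) and 39 of 84 (plate 711, 46.4%). The 3 control plates and the 3 auxin plates did not overlap, and every plate held a single condition, so that plate and condition cannot be told apart within a replicate. Of the 201 wells of the series with 2600 or fewer detected genes, 0 had a Dkk1 UMI. A limit of 3 counts puts the share of such wells with a UMI at up to 1.49%, and the exact 95% interval reaches 1.82%. Their median was 607 gene UMIs against 93034 in the 506 wells, so that they show little about deeper wells.

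**Figure D1:**
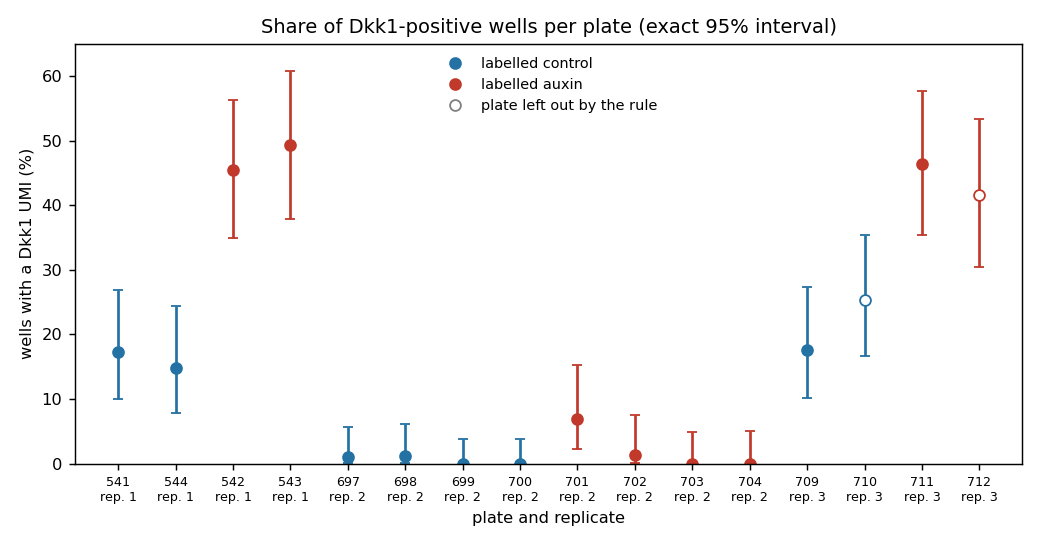
Share of wells with at least 1 Dkk1 UMI (percent, y axis) on each plate of the series (x axis), with exact 95% binomial intervals as bars. Blue plates were labelled control and red plates auxin, and open points are the 2 plates of replicate 3 that the rule leaves out. The 3 auxin plates read here lie between 45.6 and 49.4% and the 3 control plates between 14.8 and 17.6%, whereas the plates of replicate 2 lie at or below 6.85%.

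Replicate 2 was the exception. A Dkk1 UMI was found in 8 of 661 wells there (1.21%, interval 0.524 to 2.37%), of which 6 were among 290 auxin wells and 2 among 371 control wells. A single auxin plate held 5 of these 8 wells, and 4 of the 8 plates had 0 positive wells among 333. With auxin the positive wells held 3 to 9 Dkk1 UMIs, with a median of 8.5, and the 2 control wells held 1 and 6.

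Positive wells usually held several Dkk1 UMIs. Whether each UMI stands for a separate molecule was not tested. In replicate 1 the control wells ranged from 1 to 33 UMIs with a median of 7 (mean 8.74), and the auxin wells from 1 to 74 with a median of 9 (mean 13.8). In replicate 3 the control wells ranged from 1 to 9 with a median of 3 (mean 3.67), and the auxin wells from 1 to 55 with a median of 6 (mean 9.15). Auxin wells thus reached higher than control wells in both replicates, with wide overlap. The median positive well stood at 66.6 (control) and 86.7 (auxin) unscaled CPM in replicate 1 and at 34.5 and 59.0 in replicate 3, where unscaled CPM is the gene's part of the gene UMIs times 1000000. Of the 161 positive wells, 13 held a single Dkk1 UMI and 54 held 10 or more. The threshold of the rule therefore separates 345 wells at 0 from 13 wells at 1.

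**Figure D2:**
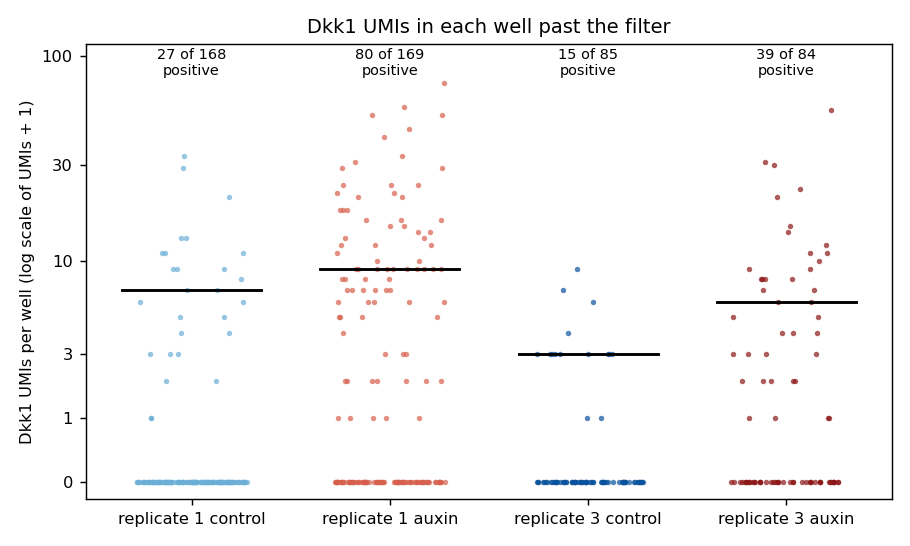
Dkk1 UMIs in each of the 506 wells (y axis, logarithmic in UMIs + 1) by replicate and condition (x axis). Each point is a well and the black line is the median of the positive wells, at 7, 9, 3 and 6 UMIs from left to right. Most wells lie at 0, and positive wells reach 33, 74, 9 and 55 UMIs.

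Dkk1 was spread very unevenly over the wells. Had the Dkk1 UMIs of a unit (a replicate and condition) been spread in proportion to depth, as a Poisson count, 1.12% of the auxin wells of replicate 1 and 5.45% of those of replicate 3 would have held none. The observed shares at 0 were 52.7 and 53.6%. In control wells the Poisson shares were 27.9 and 53.3%, against 83.9 and 82.4% observed. Wells with 10 or more UMIs held 77.6% of all Dkk1 UMIs of the auxin wells in replicate 1 and 65.3% in replicate 3. Control wells gave 60.2 and 0%. After each well was thinned to 20000 UMIs, the variance of Dkk1 over its mean was 5.73 and 5.75 in the auxin units, at rank 150 of 7773 genes and rank 139 of 8842 genes with a mean of at least 0.2, where the median gene stood at 2.33 and 2.07. In control wells of replicate 1 it was 4.07, at rank 621 of 7730 genes with a median of 2.52, and in control wells of replicate 3 the mean of Dkk1 was below 0.2. Thinning lowered the positive shares to 34.9 and 34.2% in the auxin wells and to 12.5 and 11.9% in the control wells.

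Summed over all wells of a unit, Dkk1 stood at 13.1 and 57.2 unscaled CPM (control and auxin) in replicate 1 and at 9.07 and 53.4 in replicate 3. The ratio of auxin to control was thus 4.37 and 5.89. Beside the ratios of 2.95 and 2.63 in the share of positive wells, the ratio of the median level within positive wells was 1.30 and 1.71 and that of the mean UMIs per positive well 1.57 and 2.50.

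The remaining transcriptome was compared between positive wells and wells at 0 within the same replicate and condition. UMIs were summed per unit and Dkk1 state, which gave 8 sums from 4 units, and edgeR's quasi-likelihood test was applied with the unit as a block and Dkk1 itself left out. Cells of a sum are not replicates, and the 4 units come from 2 replicates of the procedure, so that p-values measure the spread between these units. Of 12551 genes tested, 0 passed an adjusted p of 0.05 (0%), while 537 (4.28%) had an unadjusted p under 0.05, of which 268 (2.14%) were higher and 269 (2.14%) lower in positive wells. DESeq2 called 3 genes on the same sums, Rpph1, Mpv17l and Ascl2, each higher in positive wells. The median log2 difference over the tested genes was -0.01, with quartiles at -0.19 and 0.16. The genes below are therefore those with the smallest p in each direction, and none of them passed the adjusted threshold in the edgeR fit.

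Depth differed between the states and stands beside every gene result. The median positive well held 107053 gene UMIs against 104055 at 0 Dkk1 UMIs in the control wells of replicate 1, 116225 against 111149 in its auxin wells, 86891 against 69435 in the control wells of replicate 3 and 87064 against 62862 in its auxin wells. The positive wells were higher in 4 of 4 units, by 12433 ± 10114 UMIs (SD over the 4 units). An exact permutation test that flips the signs of the 4 differences cannot give a two-sided p below 0.13, which is the value it gave. Detected genes were higher in 3 of 4 units (same exact test, p = 0.25). The percent of counts from ERCC spike-ins, RNA added in a fixed amount to each well, was lower in 3 of 4 units (same exact test, p = 0.25). The part of depth in the gene results was not tested beyond the thinned and depth-matched values given at the end. No doublet caller was run on these sorted plates.

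Levels of some genes cannot be compared between the replicates. Among 6938 genes with at least 500 UMIs in replicate 1, 152 were at 0 UMIs in replicate 3, Sox2 and Tubb3 among them. Gapdh stood at 1623 to 1905 CPM in replicate 1 and at 16.2 to 17.5 CPM in replicate 3, and Pou5f1 at 228 to 273 and 10.9 to 12.5 CPM. Nanog (496 to 563 and 495 to 525 CPM) and Actb (3422 to 3539 and 3301 to 3428 CPM) were close in both replicates. The contrast of Dkk1 states lies within a unit, where such a difference is shared by both states. Its cause was not tested.

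**Figure D3:**
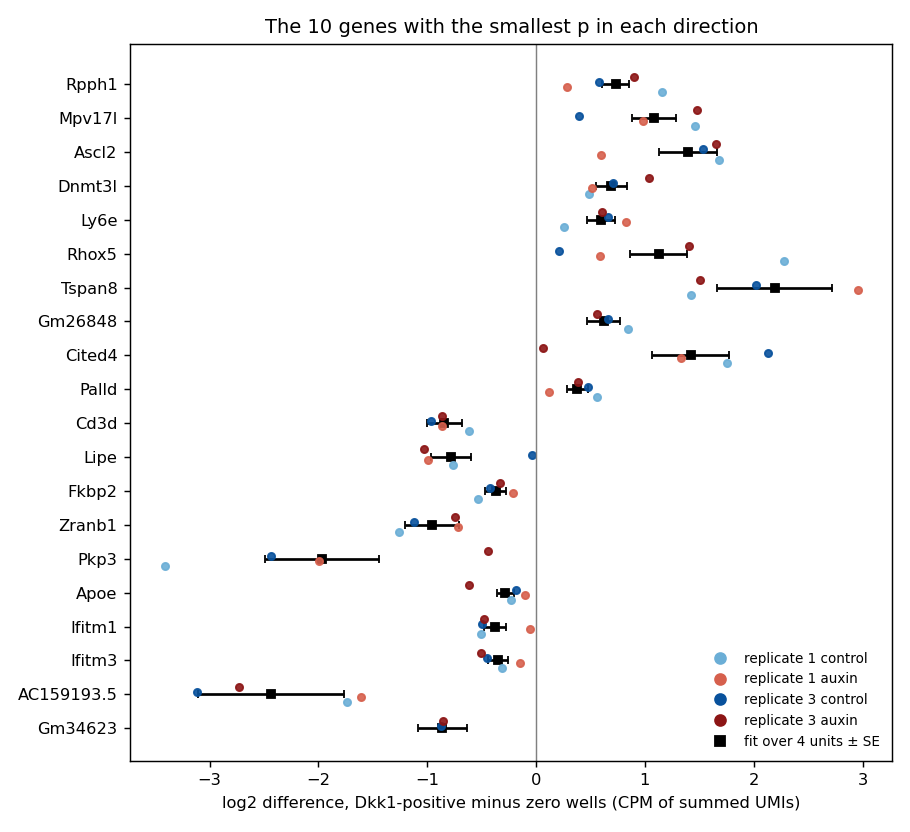
Log2 difference between Dkk1-positive wells and wells with 0 Dkk1 UMIs (x axis) for the 10 genes with the smallest p in each direction (y axis). Coloured points are the 4 units, black squares the edgeR estimate with its standard error. No gene here passed an adjusted p of 0.05, and the estimates run from -2.43 for AC159193.5 to 2.19 for Tspan8.

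On the higher side, the 3 smallest p-values belonged to Rpph1, Mpv17l and Ascl2. All CPM values of genes that follow are the same quantity from the summed UMIs with edgeR's TMM scaling (a trimmed-mean correction of library sizes), positive wells named first. Rpph1, the RNA component of ribonuclease P, stood at 972 against 435 CPM in control wells and 345 against 284 in auxin wells of replicate 1, and at 201 against 134 and 140 against 74.9 in replicate 3. It was higher in 4 of 4 units, by 0.73 ± 0.13 (log2, SE, edgeR adjusted p = 0.704). A single positive control well of replicate 1 held 831 of its UMIs, 34.6% of that sum, and Rpph1 stayed higher in 4 of 4 units without it. The share of wells with an Rpph1 UMI after thinning was higher in positive wells in 1 of 4 units.

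Mpv17l, which encodes a peroxisomal and mitochondrial membrane protein, stood at 55.9 against 20.0 CPM and 37.4 against 18.7 in control and auxin wells of replicate 1, and at 103 against 78.0 and 77.0 against 27.3 in replicate 3. The estimate was 1.08 ± 0.20 (log2, SE, edgeR adjusted p = 0.704). After thinning, 22.2 against 18.4% and 17.5 against 22.5% of wells in replicate 1 held an Mpv17l UMI, and 66.7 against 58.0% and 65.8 against 31.7% in replicate 3. The share was thus higher in positive wells in 3 units and lower in the auxin wells of replicate 1. In control wells of replicate 1 a single positive well held 68 of 138 Mpv17l UMIs, and the level was 118 unscaled CPM at 1 to 4 Dkk1 UMIs, 9.28 at 5 to 9 and 9.04 at 10 or more, against 17.5 at 0.

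Ascl2, a basic helix-loop-helix factor known as a Wnt target in intestinal stem cells and as a regulator of trophoblast, stood at 43.3 against 13.3 CPM and 10.5 against 6.82 in replicate 1 (control, auxin), and at 43.0 against 14.7 and 39.1 against 12.2 in replicate 3. The estimate was 1.40 ± 0.26 (log2, SE, edgeR adjusted p = 0.704). A single positive auxin well of replicate 3 held 75 Ascl2 UMIs, 47.8% of that sum, and without it the level was 22.7 unscaled CPM in place of 42.8, against 13.6 at 0. Ascl2 was also found in a larger share of positive wells in each unit. After thinning, the shares were 22.2 against 15.6% and 12.5 against 6.74% in replicate 1, and 53.3 against 29.0% and 28.9 against 17.1% in replicate 3. In control wells of replicate 1 the level depended on the well richest in Krt18, described further below, without which it was 14.6 unscaled CPM in place of 37.1, against 11.6 at 0. As deposited the shares were 25.9 against 22.0%, 25 against 13.5%, 66.7 against 34.3% and 41.0 against 22.2%.

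Rhox5, an X-linked homeobox gene, was uneven between cells, with up to 202 UMIs in a well. It stood at 206 against 42.2 CPM and 101 against 66.8 in replicate 1, and at 149 against 128 and 170 against 63.9 in replicate 3 (1.13 ± 0.26, log2, SE). After thinning, 18.5 against 9.22% and 18.8 against 8.99% of wells in replicate 1 and 46.7 against 20.3% and 31.6 against 17.1% in replicate 3 held it. In each unit the share of positive wells with Rhox5 was thus higher by 9.30 to 26.4 percentage points. Wells with 10 or more Rhox5 UMIs numbered 67, of which 36 were Dkk1-positive (53.7%, beside 31.8% of all wells). By unit they were 5 of 14 (35.7%) and 12 of 19 (63.2%) in replicate 1, and 6 of 17 (35.3%) and 13 of 17 (76.5%) in replicate 3, beside 16.1, 47.3, 17.6 and 46.4% of all wells.

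The other 6 genes on the higher side were Dnmt3l, Ly6e, Tspan8, Gm26848, Cited4 and Palld. Dnmt3l, the catalytically inactive cofactor of de novo DNA methylation, differed by 0.69 ± 0.14. In control wells of replicate 1 its level was 98.5 unscaled CPM at 1 to 4 Dkk1 UMIs, 16.2 at 5 to 9 and 31.1 at 10 or more, against 36.7 at 0. Ly6e, a GPI-anchored surface protein, differed by 0.60 ± 0.13. Tspan8, a tetraspanin, differed by 2.19 ± 0.53 at levels of 3.99 to 16.6 CPM in positive wells, and 1 well held 87.8% of its UMIs in the positive control sum of replicate 1. Without that well Tspan8 was higher in 3 units and lower in 1. It was the well richest in Krt18, described further below. In a fit without it Tspan8 differed by 1.54, Cited4 by 0.97 and Ascl2 by 1.05, where the fit over all wells gave 2.19, 1.42 and 1.40. Cited4, a transcriptional coactivator, differed by 1.42 ± 0.36, with 46.7% of its UMIs in positive auxin wells of replicate 1 from 1 well, and the actin-associated protein gene Palld by 0.38 ± 0.10. Gm26848, an annotated lincRNA, had 0 UMIs in the auxin unit of replicate 1, and its estimate of 0.62 ± 0.15 rests on replicate 3.

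On the lower side, Cd3d had the smallest p. It encodes the delta chain of the T cell receptor complex, and its reads were found in every unit, at 15.8 against 24.4 CPM and 31.6 against 57.8 in replicate 1, and 47.9 against 93.6 and 37.9 against 69.2 in replicate 3. The estimate was -0.84 ± 0.16 (log2, SE, edgeR adjusted p = 0.704), lower in 4 of 4 units. In control wells of replicate 3 the level was 18.8 unscaled CPM at 1 to 4 Dkk1 UMIs and 211 at 5 to 9, against 106 at 0. In those of replicate 1 it was 0.975 at 1 to 4, 27.9 at 5 to 9 and 14.1 at 10 or more, against 21.3. The thinned share was lower in positive wells except in auxin wells of replicate 1 (30 against 28.1%). Lipe, the hormone-sensitive lipase gene, differed by -0.78 ± 0.18, and was nearly equal in control wells of replicate 3 (13.9 against 14.3 CPM). Over well means of log2(CPM + 1) its difference was close to 0 (limma, adjusted p = 0.998).

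Apoe, which encodes a lipid carrier apolipoprotein, had the highest level among the 20 genes with the smallest p. It stood at 1678 against 1970 CPM and 1637 against 1755 in replicate 1, and at 1791 against 2041 and 1345 against 2059 in replicate 3 (-0.28 ± 0.08, log2, SE). Ifitm1 and Ifitm3, interferon-inducible transmembrane proteins that are also expressed in early germ cells, differed by -0.38 ± 0.10 and -0.35 ± 0.10, each lower in 4 of 4 units. Fkbp2, a prolyl isomerase of the endoplasmic reticulum, differed by -0.37 ± 0.09 and Zranb1, a deubiquitinase, by -0.95 ± 0.25. Pkp3, a desmosomal plakophilin, differed by -1.96 ± 0.52 at 0.405 to 12.0 CPM in positive wells. AC159193.5 (-2.43 ± 0.67) and the lincRNA Gm34623 (-0.86 ± 0.23, 0 UMIs in replicate 1) completed the list. In control wells of replicate 3 a single well held 31.6% of the Gm34623 UMIs at 0, and its difference was -0.20 with matched depth and -0.06 over well means (limma, adjusted p = 0.97).

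Over the 12551 genes, 718 (5.72%) were higher in 4 of 4 units and 846 (6.74%) lower in 4 of 4. The share of thinned wells with a UMI gives each well equal weight. By that measure 964 genes (7.68%) were higher and 468 (3.73%) lower in positive wells in 4 of 4 units. Of the 10 named higher genes 5 were so (Ascl2, Dnmt3l, Ly6e, Rhox5 and Tspan8), and of the 10 named lower genes 2 (Zranb1 and AC159193.5). The direction of these 20 genes in the sums chose them, so these counts are a description.

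No gene was called in the test of whether the contrast of Dkk1 states differed between control and auxin. In that interaction the adjusted p was under 0.05 for 0 of 12551 genes (0%) and the unadjusted p for 415 (3.31%). Among the 20 named genes the smallest unadjusted interaction p was 0.103, for Cited4. That gene stood at 38.9 against 11.3 CPM and 31.2 against 6.87 in control wells of replicates 1 and 3, and at 22.5 against 8.71 and 6.23 against 5.94 in auxin wells.

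The Wnt pathway was read in 2 lists, chosen with earlier results of these data known. Of 25 target genes of Wnt/β-catenin signalling 14 had enough counts, and 6 were above and 8 below 0, with a median of -0.07 against -0.01 over the tested genes. The median of the list was 0.16 both after thinning and with wells at 0 matched in UMIs. Ascl2 and Lef1 were higher with an unadjusted p under 0.05, 0 targets were lower by that measure, beside 2.14% of all genes in each direction, and 0 passed the adjusted threshold. Lef1, a β-catenin-binding transcription factor, stood at 4.86 against 1.97 CPM and 7.11 against 1.88 in replicate 1, and at 27.1 against 6.87 and 20.2 against 14.3 in replicate 3 (1.41 ± 0.40, log2, SE). Over all units together it was found in 30 of 161 positive wells and 33 of 345 wells at 0. Its thinned share was higher in 4 of 4 units, beside 7.68% of all genes. The highest positive well held 50 and 39.7% of the Lef1 UMIs of positive wells in replicate 1, and 41.0 and 23.5% in replicate 3. Without it the levels were 2.13 against 1.72 and 3.93 against 1.69 unscaled CPM in replicate 1. In replicate 3 they were 19.3 against 7.76 and 17.4 against 15.9.

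Axin2, a scaffold of the β-catenin destruction complex and the most used reporter of the pathway, stood at 0.405 against 6.43 CPM and 14.0 against 6.12 in replicate 1, and at 4.86 against 4.46 and 7.48 against 5.35 in replicate 3 (-0.05 ± 0.64). Sp5, a zinc finger target, differed by -0.34 ± 0.25 and Znrf3, a ubiquitin ligase that removes Wnt receptors, by -0.45 ± 0.30. Myc differed by 0.43 ± 0.28, and its thinned share was higher in 4 of 4 units, by 2.05 to 15.5 percentage points. Id2 differed by 1.09 ± 0.64, and its largest difference, in control wells of replicate 1, is described further below. Cdx1 (0.01 ± 0.10), Ccnd1 (0.17 ± 0.31), Lgr5 (-0.10 ± 0.56), Notum (-0.24 ± 0.36), Tcf7 (-0.36 ± 0.67), Tnfrsf19 (-0.39 ± 0.30) and Bmp4 (-0.43 ± 0.55) each had an unadjusted p above 0.05.

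Among 37 ligands, receptors, antagonists and transducers, 20 were tested, and their median was 0.05. Lrp5, a co-receptor that DKK1 binds, was higher in 4 of 4 units (1.61 ± 0.53), at 0.81 against 0.303 CPM and 1.24 against 0.235 in replicate 1 and at 24.3 against 5.38 and 15.2 against 8.62 in replicate 3. In replicate 1 this rests on 2 and 11 UMIs in the positive sums, and 1 auxin well held 54.5% of the 11. In control wells of replicate 3 a single positive well held 54.3% of the Lrp5 UMIs. Without it the level was 13.4 unscaled CPM in place of 27.0, against 6.08 at 0. In auxin wells of replicate 3 the level was 31.2 unscaled CPM at 1 to 4 Dkk1 UMIs, 15.0 at 5 to 9 and 0.90 at 10 or more, against 9.60 at 0. Lrp6, the other co-receptor, differed by 0.12 ± 0.22. Kremen1, a DKK1 receptor, differed by 0.79 ± 0.49, and its thinned share was higher in 4 of 4 units. Sfrp1, a secreted Wnt antagonist, stood at 314 against 326 CPM and 318 against 366 in replicate 1, and at 70.8 against 120 and 110 against 130 in replicate 3 (-0.29 ± 0.11). The receptor Fzd10 was lower in 4 of 4 units (-0.82 ± 0.40). β-catenin itself, Ctnnb1, differed by 0.05 ± 0.12, Tcf7l1 by 0.18 ± 0.18 and Tcf7l2 by -0.12 ± 0.21. Of the 20 genes, 1 was higher (Lrp5) and 1 lower (Sfrp1) at an unadjusted p under 0.05, beside 2.14% in each direction over all genes.

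**Figure D4:**
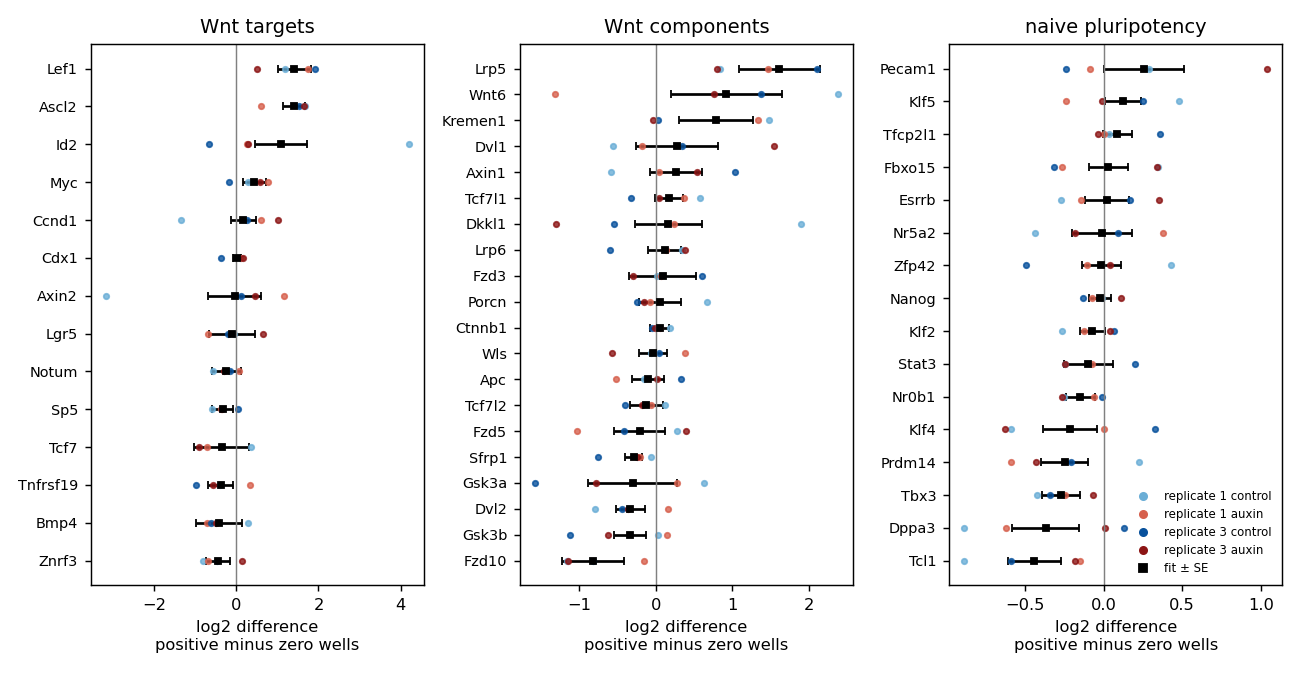
Log2 difference between Dkk1-positive wells and wells with 0 Dkk1 UMIs (x axis) for each tested gene (y axis) of the Wnt target, Wnt component and naive pluripotency lists. Coloured points are the 4 units and black squares the edgeR estimate with its standard error. Lef1, Ascl2 and Lrp5 lie to the right in 4 of 4 units, Tcl1, Tbx3, Nr0b1, Sfrp1 and Fzd10 to the left, and Nanog lies at -0.02.

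Positive wells carried the markers of naive ES cells. Nanog was counted in 161 of 161 positive wells and 343 of 345 wells at 0, at 567 against 570 CPM and 609 against 640 in replicate 1, and at 434 against 475 and 465 against 430 in replicate 3 (-0.02 ± 0.07). The 16 naive genes had a median of -0.05, with 5 above and 11 below 0. Zfp42 (-0.01 ± 0.12), Esrrb (0.02 ± 0.14), Tfcp2l1 (0.09 ± 0.09), Klf2 (-0.07 ± 0.08) and Klf5 (0.12 ± 0.11) had narrow errors around 0. The genes with the smallest p were Tcl1 (-0.44 ± 0.17), a cofactor of the AKT kinase, and Tbx3 (-0.27 ± 0.12), a T-box factor of the naive network. Both were lower in 4 of 4 units at an unadjusted p under 0.05 and neither passed the adjusted threshold. Of the 16 genes 2 were thus lower by that p, beside 2.14% of all genes, and 3 were lower in 4 of 4 units, beside 6.74%. Tbx3 stood at 98.8 against 133 CPM and 89.6 against 106 in replicate 1, and at 95.1 against 120 and 74.5 against 78.1 in replicate 3. Klf4 (-0.21 ± 0.17) was found in a smaller share of thinned positive wells in 4 of 4 units, 63.0 against 77.3% and 46.2 against 53.9% in replicate 1, and 46.7 against 52.2% and 18.4 against 26.8% in replicate 3. Dppa3 (-0.37 ± 0.21), Prdm14 (-0.25 ± 0.15), Nr0b1 (-0.15 ± 0.09), Stat3 (-0.10 ± 0.15), Pecam1 (0.26 ± 0.25), Fbxo15 (0.03 ± 0.12) and Nr5a2 (-0.01 ± 0.19) made up the rest.

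Wells low in Nanog included both Dkk1 states, in shares that differed by unit. Below 200 unscaled CPM of Nanog, 5 of 27 control wells (18.5%) and 9 of 12 auxin wells (75%) of replicate 1 were Dkk1-positive, against 16.1 and 47.3% of all wells of these units. In replicate 3 the numbers were 2 of 10 (20%) and 5 of 11 (45.5%), against 17.6 and 46.4%. Below 100 unscaled CPM, 4 of 11 control wells of replicate 1 were positive (36.4%), and 3 of 7 wells in the other units. These limits were set after the values were seen, and no test is given. The median positive well held 482 and 494 unscaled CPM of Nanog in control and auxin wells of replicate 1 and 447 and 505 in replicate 3, against 431, 569, 431 and 405 in wells at 0.

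Most markers of other lineages were low. Of 12 primitive endoderm markers 7 were tested, and 3 of them were higher in 4 of 4 units, beside 5.72% of all genes. Their median was 0.37, and -0.07 after thinning to 20000 UMIs. Sox17, an endoderm transcription factor, stood at 5.27 against 1.74 CPM and 8.47 against 2.35 in replicate 1, and at 5.55 against 3.16 and 13.5 against 1.49 in replicate 3 (1.83 ± 0.53). Dab2, an endocytic adaptor, differed by 1.25 ± 0.61 and the collagen gene Col4a1 by 0.64 ± 0.43. Of the 7 genes 4 lay above and 3 below 0, among the latter the laminin gene Lama1 (-0.36 ± 0.46) and the collagen gene Col4a2 (-0.56 ± 0.72). A Sox17 UMI was found in 17 of 161 positive wells and 20 of 345 wells at 0, so that most positive wells had none counted. Single wells carried much of it. The highest positive well of each unit held 46.2 and 50.7% of the Sox17 UMIs of positive wells in replicate 1 and 62.5 and 46.3% in replicate 3, and without it the level of positive wells was 2.42 against 3.57 unscaled CPM at 0 in control wells of replicate 3. In control wells of replicate 1 the 2 wells richest in Krt18 held 6 each of the 13 UMIs. For Dab2 and Col4a1 the highest positive well held 94.1 and 100% of the UMIs in control wells of replicate 1. Of the summed list, 85.8 to 97.0% was Sparc, a matricellular protein gene that differed by -0.01 ± 0.07. The other genes of the list summed to 25.3 against 16.9 unscaled CPM and 23.7 against 14.4 in replicate 1, and to 53.1 against 63.8 and 84.3 against 54.3 in replicate 3. Of 12 primitive streak and mesendoderm genes 3 were tested, of 8 neuroectoderm genes 3, and of 11 fibroblast and mesenchyme genes 1. The fibroblast list summed to 5.83 to 23.1 unscaled CPM in positive wells and 5.39 to 22.4 in wells at 0. Among the neuroectoderm genes, Tubb3 (-0.40 ± 0.24) and Sox1 (-0.42 ± 0.48) had 0 UMIs in replicate 3 and were lower in both units of replicate 1, and Nes (0.25 ± 0.49) was higher in 3 of 4 units.

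Genes of the 2-cell-like state, a rare and transient state of ES cultures marked by the Zscan4 family, were below the filter on low counts, which 0 of 8 listed genes passed. With no such filter, edgeR called Zscan4d and Zscan4c lower in positive wells (adjusted p = 0.0163 and 0.0268), among 35 of 34494 genes called. The summed UMIs of the 8 genes reached 10 or more in 3 wells, of which 0 were Dkk1-positive, beside 31.8% of all wells. They were 2 auxin wells of replicate 1, with up to 259 UMIs, and 1 of replicate 3, with 36. A positive well held at most 7. The 2 calls thus rest on few wells at 0. In control wells of replicate 1 the list summed to 2.43 against 0.330 unscaled CPM, the other way.

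The highest keratin counts lay in a few Dkk1-positive wells. The positive control well with the most Krt18, on plate 544 of replicate 1, held 29 Dkk1 UMIs, 2194 of Krt18, 725 of Krt8, 246 of Id2, 277 of Dppa1 and 1 of Nanog among 139518 gene UMIs. Krt18 and Krt8 encode the simple epithelial keratins of the trophectoderm and other epithelia, and Id2 encodes an inhibitor of helix-loop-helix factors. The 6 wells with the most Krt18, from 22 to 2194 UMIs, were all Dkk1-positive. Of these 6 wells 5 held 1 to 6 Nanog UMIs, and the other, an auxin well of replicate 1 with 22 Krt18 UMIs, held 61. They came from 3 units (3 wells from the control of replicate 1, 2 from its auxin wells and 1 from the auxin wells of replicate 3). The highest Krt18 count in a well at 0 was 21, so that 2 of these 6 wells were only just above it. Wells with 10 or more Krt18 UMIs were Dkk1-positive in 4 of 11 (control) and 3 of 6 (auxin) cases in replicate 1 and in 0 of 1 and 3 of 3 in replicate 3. Over all wells of these units the shares were 16.1, 47.3, 17.6 and 46.4%. With 10 or more Krt8 UMIs the numbers were 5 of 30 (16.7%, beside 16.1% of all control wells) and 16 of 27 (59.3%, beside 47.3% of all auxin wells) in replicate 1, with up to 91 Krt8 UMIs in a well at 0. Of 6 wells with 10 or more Dppa1 UMIs 5 were Dkk1-positive, beside 31.8% of all wells. Most of these 5 were among the 6 wells with the most Krt18, so that they are not a separate set of cells. These wells were picked after their values were seen, so no test is given.

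The trophectoderm list moved with that well. Its 10 genes summed to 1238 unscaled CPM in positive control wells of replicate 1 (157 without the well) against 113 at 0, and to 80.9 to 110 against 53.3 to 79.7 in the other units. Of its 5 tested genes 4 lay above and 1 below 0, and the list median was 2.13 and 0.60 in replicate 1 (control, auxin) and -0.79 and 0.27 in replicate 3. Tfap2c, an AP-2 transcription factor, differed by -0.37 ± 0.26, with a lower thinned share in positive wells in 4 of 4 units. Gata3, a zinc finger factor of the trophectoderm, differed by 0.70 ± 0.68 and was lower in both units of replicate 3. Krt18 differed by 2.90 ± 0.89 in the edgeR fit, at 969 against 13.0 CPM in control wells of replicate 1, 16.9 against 7.65 in its auxin wells, 2.08 against 6.13 in control wells of replicate 3 and 32.6 against 8.62 in its auxin wells. Without the well, Krt18 in positive control wells of replicate 1 went from 830 to 72.5 unscaled CPM, Id2 from 119 to 35 and Krt8 from 290 to 40.5. Wells at 0 stood at 11.4 for Krt18, 6.28 for Id2 and 46.6 for Krt8. Krt18 and Id2 were thus higher in positive wells of that unit without the well too, and Krt8 was not. Of the Krt18 left in that unit, 154 UMIs lay in 1 other positive well, on plate 541, and the level without both wells was not computed. Single positive auxin wells held 91 (replicate 1) and 96 (replicate 3) Krt18 UMIs. After thinning, 29.6 against 5.67% of wells of that unit and 22.5 against 13.5% of the auxin wells of replicate 1 held Id2. In replicate 3 the shares were 0 against 10.1% (control) and 26.3 against 22.0% (auxin).

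**Figure D5:**
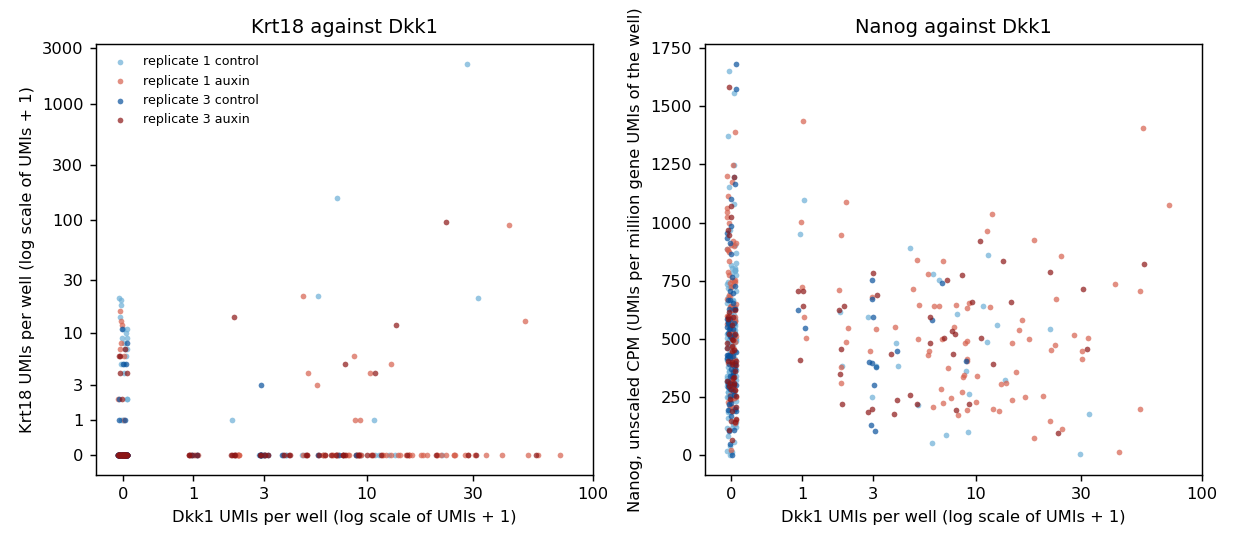
Left, Krt18 UMIs against Dkk1 UMIs in each of the 506 wells (both axes logarithmic in UMIs + 1). Right, Nanog in unscaled CPM of the well (linear axis) against Dkk1 UMIs. Points are coloured by replicate and condition. The wells above 21 Krt18 UMIs lie to the right of 0 Dkk1 UMIs, while Nanog is spread widely both in wells at 0 and in positive wells.

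Cytoskeletal and growth factor target genes lay on both sides of 0. Of 12 tested genes of the YAP/TEAD and actin-SRF list, 7 were above and 5 below 0, with a list median of 0.09 against -0.01 over all genes. At an unadjusted p under 0.05 there were 4 higher and 0 lower, beside 2.14% of all genes in each direction. Tpm1, a tropomyosin of actin filaments, stood at 201 against 141 CPM and 137 against 106 in replicate 1, and at 153 against 104 and 110 against 93.0 in replicate 3 (0.42 ± 0.11). Its thinned share of wells was lower in positive wells in 3 of 4 units, at 63.0 against 63.1%, 66.7 against 78.3% and 68.4 against 73.2%, and higher in auxin wells of replicate 1 (68.8 against 65.2%). Ctgf (0.84 ± 0.28) and Cyr61 (0.63 ± 0.26), matricellular proteins and common YAP targets, were higher in 3 and 4 of 4 units, and Actb, cytoplasmic actin, differed by 0.16 ± 0.06. Of the 12 genes 3 were higher in 4 of 4 units, beside 5.72% of all genes.

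Of 13 tested genes of the BMP and TGF-β list, 3 were higher and 0 lower at an unadjusted p under 0.05, beside 2.14% of all genes in each direction. These were Bambi (0.62 ± 0.23), a decoy receptor, Lefty1 (0.55 ± 0.24), a Nodal antagonist, and Id3 (0.50 ± 0.22), a BMP target. None was higher in 4 of 4 units, and Lefty1 stood at 8.22 against 16.9 CPM in auxin wells of replicate 3. The list summed to 1500 against 1078 and 1111 against 1005 unscaled CPM in replicate 1 (control, auxin). In replicate 3 it summed to 587 against 585, nearly equal, and to 471 against 406. Without the well richest in Krt18 the positive control wells of replicate 1 stood at 1402.

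Cell cycle lists had small medians, and the summed G2/M list moved in both directions. Of 20 G1/S genes 3 were lower and 0 higher at an unadjusted p under 0.05, beside 2.14% of all genes in each direction, namely Ccne2 (-0.88 ± 0.37), a cyclin of the G1/S transition, Uhrf1 (-0.23 ± 0.10) and Gins2 (-0.31 ± 0.14), and the median was -0.12. Of 20 G2/M genes 10 lay above and 10 below 0, with a median of 0.01, and 1 was higher by that measure, the mitotic kinesin Kif11 (0.36 ± 0.14). The thinned share was higher in 4 of 4 units for 3 of them (Kif11, Mki67 and Plk1) and lower for 0. Over all genes 7.68 and 3.73% were so. The summed G2/M list stood at 3849 against 4598 and 5559 against 5015 unscaled CPM in replicate 1 (control, auxin). In replicate 3 it stood at 5853 against 5884 and 7700 against 6710. The summed G1/S list was lower in positive wells in 4 of 4 units, at 3644 to 4435 against 3723 to 4779 unscaled CPM. Depth was also higher in positive wells in 4 of 4 units.

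The remaining lists had 0 or 1 gene past an unadjusted p of 0.05, beside 2.14% of all genes in each direction. Of 19 p53 targets 0 passed an unadjusted p of 0.05 in either direction (median -0.10), and likewise 0 of 9 immediate early genes (median -0.02, but 0.51 after thinning and 0.20 with matched depth), 0 of 14 cohesin and loop extrusion genes (median -0.05), 0 of 9 mitochondrially encoded genes (median -0.03) and 0 of 10 general pluripotency genes (median 0.04). Of 12 genes of the integrated stress response 1 was lower, Trib3 (-1.02 ± 0.42), and of 9 formative and primed genes 1 was higher, Dnmt3a (0.66 ± 0.30), a de novo DNA methyltransferase. In these lists and those above, 0 genes passed the adjusted threshold among the 12551 tested.

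Genes near Dkk1 on the chromosome differed in either direction. Within 3 Mb on either side 29 genes were tested, of which 2 had an unadjusted p under 0.05, beside 4.28% of all genes. Prkg1, whose annotated end lies 0.0148 Mb away, differed by -0.38 ± 0.43, and Gldc, at 0.370 Mb on the other side, by 0.19 ± 0.49. The 2 genes were Slc1a1 at 1.63 Mb (0.67 ± 0.29) and Plpp6 at 1.58 Mb (-1.36 ± 0.57), of opposite sign.

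In replicate 2 the 6 positive auxin wells were set beside 284 auxin wells at 0, with no test. Of the 20 named genes 6 had the sign seen in replicates 1 and 3. Ascl2 was among them, at 62.7 against 26.9 unscaled CPM, as was Cited4 at 20.1 against 6.17. Rhox5 stood at 38.5 against 112 and Apoe at 1789 against 1074, opposite to replicates 1 and 3.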

How the data were processed

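The authors sorted single cells into plates, sequenced Smart-SCRB libraries and aligned the reads to mm10. The counts they deposited are raw UMIs for each gene and well. The counting program is not given in the sources used here. For each well the authors deposited detected genes, the summed count and the ERCC percent, and for each plate a saturation fraction (0.283 to 0.314 in replicate 1, 0.470 to 0.531 in replicate 3). Of the rows, 52636 genes were used, and 92 ERCC and 11 transgene sequences were not. The deposited detected genes and sums equalled the recomputed ones in 1536 of 1536 wells (the sum with ERCC). No well of the 506 repeated another's counts.

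Wells with more than 2600 detected genes were read, as in the study's methods. Plates 710 and 712 of replicate 3 were left out because the annotation and the study's source values disagree on their condition. Wells held 10532 to 250161 gene UMIs, and the 8 sums 1283780 to 15044971. The test was edgeR 4.0.16 on sums past its expression filter (quasi-likelihood, TMM, unit as block, Benjamini-Hochberg, threshold 0.05) in R 4.3.3, tested on simulated data first. Thinning to 20000 UMIs used seed 1 and left out 6 wells (1 positive, 5 at 0). Intervals are exact Clopper-Pearson. Annotation was GENCODE vM21, which held 99.7% of the gene identifiers. Named genes are the 10 with the smallest p in each direction, since none was called, and up to 4 members of each list by p, with the Wnt and naive lists in full. Further members of the primitive endoderm and trophectoderm lists were named after their values were seen. The wells high in Krt18 or Dppa1, the thinned shares and the Nanog limits were chosen after seeing the data. The members and lists were chosen with earlier results of these data known. Alternatives were DESeq2 1.42.0, limma 3.58.1, other filters, depth matching, plates as units and leaving out units. Python 3.11.15, numpy 2.4.6, pandas 2.3.3 and scipy 1.17.1 were used.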

Additional observations from a re-analysis of the deposited data

Results flagged for a closer look

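The log2 difference of Ascl2 between Dkk1-positive wells and wells at 0 was 0.60 in auxin wells of replicate 1, far from the other 3 units by Dixon's criterion. Ifitm1 stood apart in the same unit, at -0.058, where the other 3 units were lower. Of 20 named genes 2 were flagged in this way, and chance flags about 1 in 20 groups of 4.

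The 2 plates of replicate 3 that were left out also held Dkk1-positive wells. The plate labelled control had 23 of 91 wells (25.3%, exact 95% interval 16.7 to 35.5%), and the plate labelled auxin had 32 of 77 (41.6%, interval 30.4 to 53.4%). Both shares lie above those of the control units read here (16.1 and 17.6%) and below those of the auxin units (47.3 and 46.4%).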

How the results depend on the processing

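The count of genes called between Dkk1 states was 0 and stayed 0 under 10 of 17 alternative settings. These were the fit with no replicate block (0, with 102 genes at an unadjusted p under 0.05 against 537), sums per plate, at least 2 Dkk1 UMIs, more than 4000 detected genes, wells at 0 matched in UMIs, limma on well means, replicate 2 added, replicate 3 with 4 plates, and the fits without either auxin unit. It was also 0 without the well richest in Krt18, a setting chosen after seeing the data. DESeq2 called 3 genes, no filter on low counts 35 (14 higher, 21 lower) and thinning to 20000 UMIs 2 (Krt18 and Rpph1). Leaving out a replicate or unit gave 0 to 9, with 9 without replicate 1 (7 higher, 2 lower), 1 without replicate 3 (Dppa1), 2 without the control unit of replicate 1 (Obox6 and Pla2g1b) and 1 without the control unit of replicate 3 (Dppa1). The cause was not tested. The 20 genes with the smallest p (10 in each direction) had the same sign in 346 of 346 values, which their choice largely fixes, whereas in auxin wells of replicate 2 alone 6 of 20 had it. Ascl2 ranged from 0.99 to 1.63, Lipe from -0.92 to -0.003, Gm34623 from -0.91 to -0.06 and Apoe from -0.40 to -0.09. Genes of the lists outside these 20 were not followed singly across settings. Thinning lowered the share of positive wells to 34.9 and 34.2% in the auxin units of replicates 1 and 3, by construction, and list medians moved by more than the spread between units in 10 of 90 values, of which the Wnt targets (0.16 thinned and matched), primitive endoderm (-0.07 thinned) and cohesin genes (0.06 matched) changed sign, as did the immediate early genes (0.51 thinned, 0.20 matched). Median UMIs per positive well exceeded those at 0 by 11674 with more than 4000 detected genes. With 4 units no exact sign-flip p can fall below 0.13.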
